A study of Caenorhabditis elegans with 15 samples.

Results

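Lysozymes are secreted enzymes that cut the sugar backbone of the bacterial cell wall. C. elegans carries a lys family, related to lysozymes of protists, and an ilys family of the invertebrate type, and several members of both are made in the intestine and pharynx, where they take part in digesting bacterial food and in defence against ingested bacteria. The genes described here are 10 members of these families, lys-1, lys-2, lys-3, lys-4, lys-5, lys-7, lys-8, lys-10, ilys-2 and ilys-3, found by their WormBase symbols among the 46778 genes of the count table. The other 6 lysozyme genes of the annotation (lys-6, lys-9, ilys-1, ilys-4, ilys-5 and ilys-6) were used for comparison.

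RNA of whole worms of the wild-type strain N2 was sequenced in 15 samples at day 1 of adulthood, after 72 h of growth at 21 °C on E. coli OP50. Control worms (replicates 1 to 5) received no nanoparticles, Ag worms (replicates 6 to 10) received silver nanoparticles at 10 µg/ml, and SiO2 worms (replicates 11 to 15) received silicon dioxide nanoparticles at 10 µg/ml. The sample labels place the exposure at the adult stage, whereas the methods of the study describe growth with the particles from the first larval stage. Each sample came from a well of about 350 to 400 worms, so the p-values measure the spread between wells, and in whole-worm RNA fewer cells of a type and less RNA per cell cannot be told apart.

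The reads assigned to genes ranged from 16560734 to 24296570 per sample, and no samples were identical. All 10 lysozyme genes had enough reads to be tested, with between 1 and 26 reads per sample for ilys-2 and between 2 and 65 for lys-10, the least expressed members, against 10375 to 14484 reads for lys-1 in the Control and Ag samples. Together the 10 genes took 0.218% ± 0.0361 (SD, n = 5) of all assigned reads in Control, 0.173% ± 0.0428 in Ag and 0.227% ± 0.0315 in SiO2, and these ranges overlapped.

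Most of the genes lie in short clusters of the WBcel235 genome. On chromosome V, lys-1 (WBGene00003090, 10277904 to 10279056, plus strand), lys-2 (WBGene00003091, 10280307 to 10281474, minus strand) and lys-3 (WBGene00003092, 10282100 to 10283544, minus strand) follow each other with gaps of 1250 and 625 bp. On chromosome IV, lys-4 (WBGene00003093, 11621429 to 11623174) and lys-5 (WBGene00003094, 11624252 to 11625582) lie 1077 bp apart on the minus strand, and lys-6 follows after 1327 bp. Also on chromosome IV, ilys-3 (WBGene00016670, 2464456 to 2465443) and ilys-2 (WBGene00016669, 2467678 to 2468879) lie 2234 bp apart on the plus strand, with ilys-1 1534 bp further on. No protein-coding gene lies in any of these gaps.

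The remaining members stand apart from the clusters. They are lys-7 (WBGene00003096, chromosome V, 3481432 to 3482600, minus strand), lys-8 (WBGene00003097, chromosome II, 5586178 to 5587651, plus strand) and lys-10 (WBGene00003099, chromosome IV, 8332826 to 8333518, plus strand), of which lys-10 has a single exon. The exons of lys-8 share 38 bp with C17G10.13 on the opposite strand, and without a stated strand setting of the counting, reads in that stretch cannot be assigned to either gene. A piRNA gene, 21ur-8714, lies within lys-4 but shares no exonic base with it.

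Levels are given in CPM, the reads of a gene as parts per 1000000 of the library's assigned reads, after TMM scaling of the 15 libraries in edgeR, and in CPM per kilobase of exon where genes are compared with each other. In Control, lys-7 (667 ± 135 CPM per kilobase, SD, n = 5) and lys-1 (647 ± 77.4) stood at the top, with overlapping ranges. The next group was lys-8 (382 ± 57.9), lys-4 (372 ± 129) and lys-2 (235 ± 47.2), each overlapping its neighbour in the order. Below them, lys-5 (54.2 ± 10.4), ilys-3 (17.8 ± 8.17) and lys-3 (7.85 ± 0.485) were each separated from the next gene, and lys-10 (1.82 ± 1.77) and ilys-2 (1.09 ± 0.695) came last with overlapping ranges. The 5 most expressed genes were the same in Ag, where lys-1 came first and each neighbour in the order overlapped. In SiO2 the order differed: lys-7 (924 ± 278) and lys-4 (756 ± 170) came first, lys-1 (341 ± 54.1) came after lys-8, and lys-2 (70.5 ± 24.5) overlapped with lys-5 (62.1 ± 25.5).

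**Figure D1:**
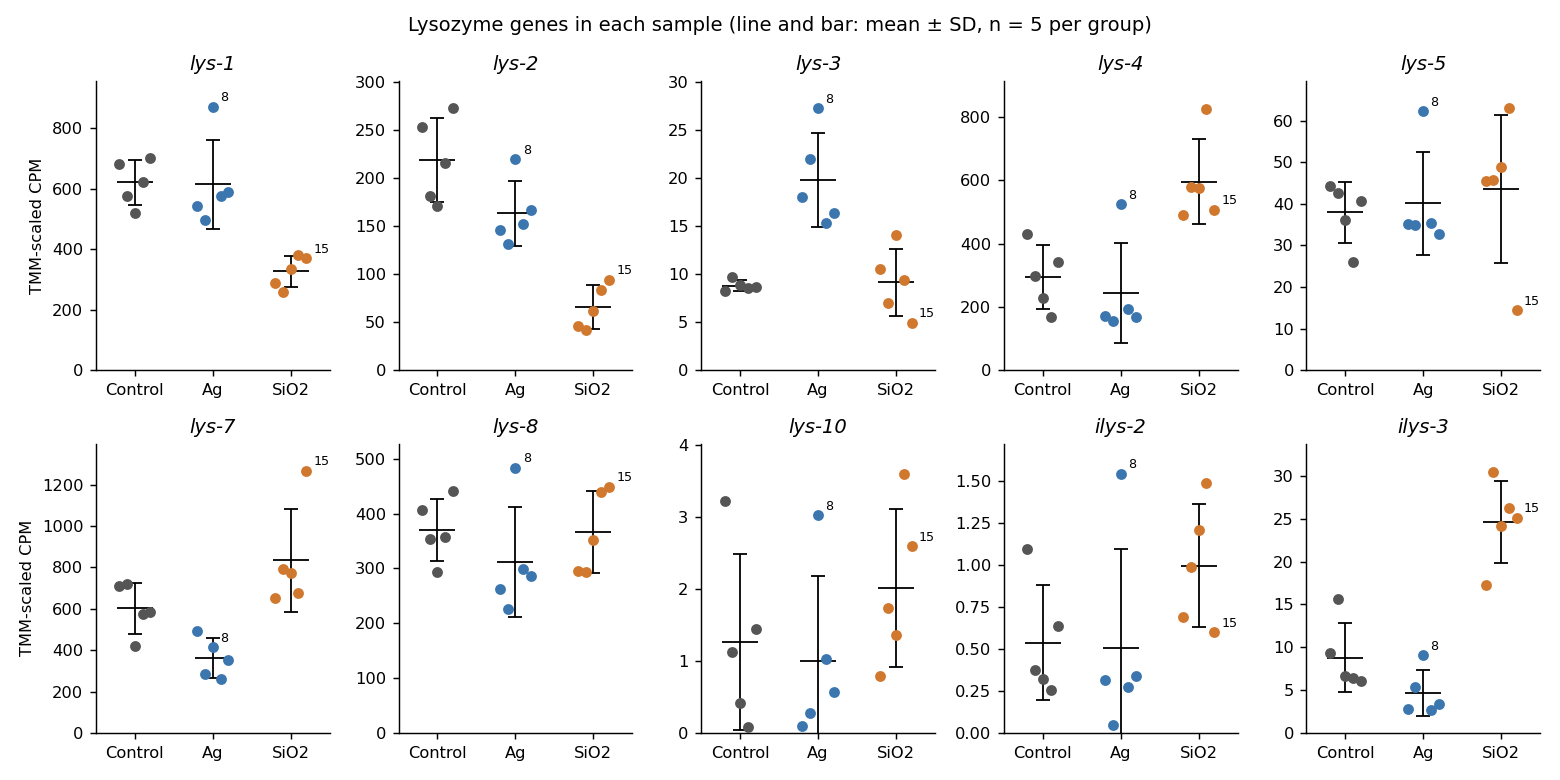
TMM-scaled CPM of each lysozyme gene in the Control, Ag and SiO2 samples. Each point is a sample, the horizontal line is the mean of 5 samples and the bar its SD, cut at 0 where it would pass below; Ag replicate 8 and SiO2 replicate 15 are numbered. The SiO2 points of lys-1 and lys-2 lie below all Control points, those of lys-4 and ilys-3 above them, and the Ag points of lys-3 above them.

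Lysozyme genes moved in both directions with SiO2, and with Ag 1 gene rose and 1 fell. SiO2 worms had lower lys-1 and lys-2 and higher lys-4 and ilys-3 than Control, and Ag worms had higher lys-3 and lower lys-7. The test was edgeR's quasi-likelihood test with Benjamini-Hochberg adjustment across every gene tested, and genes with an adjusted p under 0.05 were called. For SiO2 against Control 4 of the 10 genes were called (2 higher, 2 lower), beside 2.66% of the 20739 genes tested (1.91% higher, 0.743% lower). For Ag against Control 2 of the 10 were called (1 higher, 1 lower), beside 7.76% of 20669 genes (4.35% higher, 3.41% lower). SiO2 against Ag, taken from a fit of all 15 samples, gave 6 of 10 (3 higher, 3 lower), beside 3.4% of 21180 genes (2.04% higher, 1.36% lower). Among genes with a mean of at least 1 CPM the shares called were 3.35%, 10.5% and 4.71% in the same order. The 10 genes were chosen with earlier results of these data known, so these counts describe them and are not a test against the shares. At 2 of 10 genes the count for Ag against Control is also too small to set apart from its shares. The comparisons with Control share the 5 Control samples, and the third shares the exposed samples with both.

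The groups did not overlap in any sample for 4 of the 10 genes between SiO2 and Control, beside 3.73% of all tested genes. Between Ag and Control that held for 1 gene, lys-3, beside 9.2% of genes, a count near that share. Between SiO2 and Ag it held for 5 genes, beside 4.8%. These counts carry the same limit from the choice of the 10 genes. The median log2 fold change of the 10 genes was 0.33 for SiO2 against Control, −0.26 for Ag against Control and 0.64 for SiO2 against Ag, whereas the median over all tested genes was 0.01, -0.0086 and 0.006. A median says little of these 10 genes, because their fold changes spread from −1.74 to 1.48 with SiO2 and from −0.93 to 1.17 with Ag.

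**Figure D2:**
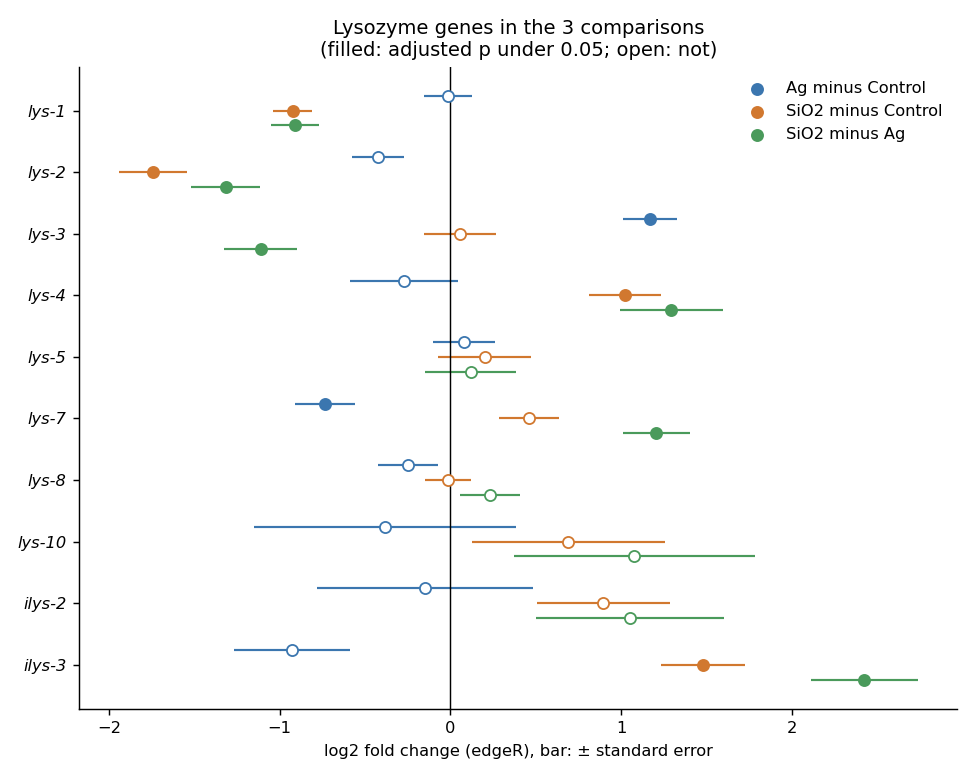
Log2 fold change of the 10 lysozyme genes for Ag minus Control, SiO2 minus Control and SiO2 minus Ag, with the standard error as a bar. Filled points passed an adjusted p of 0.05 in edgeR's quasi-likelihood test, open points did not; lys-2 (−1.74) and ilys-3 (1.48) mark the ends of the SiO2 minus Control values.

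Within the chromosome V cluster the neighbours lys-1 and lys-2 fell together with SiO2, and lys-3 rose with Ag. The first of them, lys-1, is an intestinal lysozyme whose expression is known to rise on the pathogen Serratia marcescens. Its 5 Control samples were at 681, 577, 520, 622 and 700 CPM, its 5 Ag samples at 542, 497, 870, 576 and 588, and its 5 SiO2 samples at 288, 260, 336, 380 and 370. Every SiO2 sample was below every Control and every Ag sample, whereas the Ag and Control samples overlapped. The level was 1.90-fold lower in SiO2 than in Control (log2 fold change −0.92, SE 0.11, adjusted p = 0.000258 in edgeR) and 1.88-fold lower than in Ag (−0.91, SE 0.14, adjusted p = 0.00103). Between Ag and Control the log2 difference was −0.01 (SE 0.14, adjusted p = 0.959).

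The largest fall among the 10 genes with SiO2 was that of lys-2, a second lysozyme of the cluster. Control samples held 254, 182, 172, 216 and 273 CPM, and SiO2 samples held 46.5, 42.0, 61.7, 83.5 and 94.3 CPM. The highest SiO2 sample was therefore below the lowest Control sample, and the fall was 3.34-fold (log2 fold change −1.74, SE 0.20, adjusted p = 0.000119 in edgeR). Ag samples lay between, at 146, 131, 220, 152 and 168 CPM, where 4 of 5 were below the Control range and replicate 8 was inside it. The Ag difference of −0.42 (SE 0.15) did not pass the test (adjusted p = 0.0887 in edgeR), and SiO2 was 2.49-fold lower than Ag (adjusted p = 0.000894).

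With SiO2 both genes fell, lys-2 by more than lys-1, as their ratio within each sample shows. The level of lys-1 per kilobase was 2.79 ± 0.239 times that of lys-2 in Control, 3.64 ± 0.159 times in Ag and 5.10 ± 0.974 times in SiO2 (SD, n = 5). The 3 ranges were 2.49 to 3.08, 3.41 to 3.84 and 3.81 to 6.01, so Control did not overlap with Ag or SiO2. Over the 15 samples the log2 levels of the 2 genes had the highest correlation among all pairs of the 10 genes (Pearson's r = 0.965), a description over samples that share the same libraries and group differences.

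Next to them, lys-3 rose with Ag, and its SiO2 difference did not pass the test. Its Control samples were closely spaced at 8.28, 9.69, 8.89, 8.51 and 8.61 CPM, and its Ag samples were at 18.0, 22.0, 27.3, 15.3 and 16.4 CPM. Every Ag sample exceeded every Control sample, a 2.25-fold rise (log2 fold change 1.17, SE 0.16, adjusted p = 0.00124 in edgeR). SiO2 samples were spread from 4.93 to 14.1 CPM around the Control values (0.06, SE 0.21, adjusted p = 0.942), and the level was 2.16-fold lower in SiO2 than in Ag with no overlap (adjusted p = 0.00589).

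**Figure D3:**
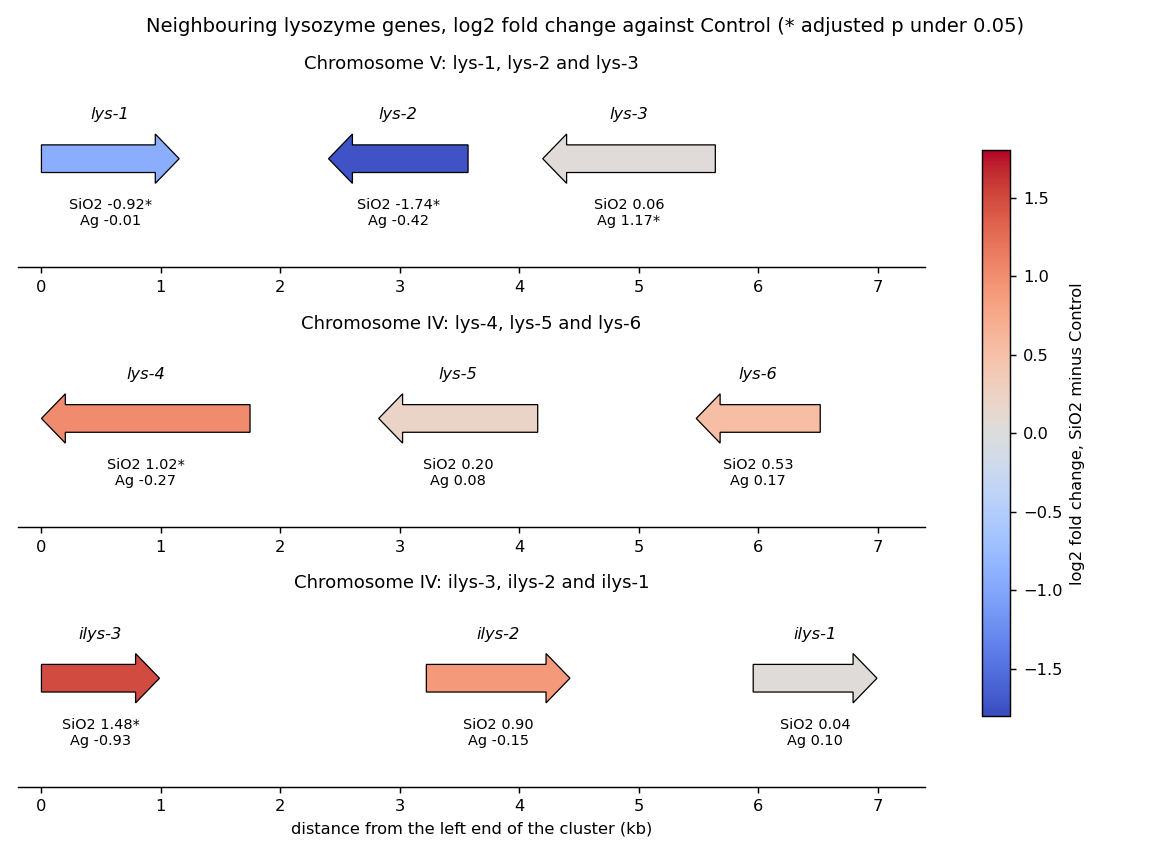
Map of the 3 lysozyme clusters, drawn to scale in kb from the left end of each, with arrows giving the strand. The colour is the log2 fold change of SiO2 minus Control, both fold changes are printed under each gene and an asterisk marks an adjusted p under 0.05; lys-1 and lys-2 share a direction with SiO2 (−0.92 and −1.74) while their neighbour lys-3 is at 0.06.

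In the second cluster lys-4 rose with SiO2, whereas its neighbour lys-5 did not pass any test. For lys-4, a lys-type lysozyme, Control samples held 431, 298, 228, 169 and 341 CPM, and SiO2 samples held 492, 578, 575, 825 and 508 CPM. All SiO2 samples were above all Control samples, a 2.03-fold rise (log2 fold change 1.02, SE 0.21, adjusted p = 0.0159 in edgeR). With the same fold change but the spread estimated over all 15 samples, the SiO2 call was lost (adjusted p = 0.121). Ag samples were at 172, 157, 525, 192 and 169 CPM, so that replicate 8 lay above every Control sample and the other 4 at the lower end of the Control range or below it. The Ag difference was −0.27 (SE 0.32, adjusted p = 0.578), and SiO2 exceeded Ag 2.45-fold (1.29, SE 0.30, adjusted p = 0.0204), with replicate 8 of Ag inside the SiO2 range. That last call was lost without Ag replicate 9 (1.22, adjusted p = 0.0602).

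The values of lys-5 were between 26.0 and 44.2 CPM in Control, between 32.7 and 62.2 CPM in Ag and between 14.4 and 63.1 CPM in SiO2. The SiO2 group held both the highest and the lowest of all 15 samples, replicates 14 and 15. The log2 differences were 0.08 (SE 0.18) for Ag and 0.20 (SE 0.27) for SiO2 against Control, with adjusted p-values of 0.787 and 0.821 in edgeR. Per kilobase lys-4 was 6.74 ± 1.29 times lys-5 in Control, 5.04 ± 1.41 times in Ag and 14.9 ± 9.25 times in SiO2, where replicate 15 alone reached 31.4.

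Of the genes outside the clusters, lys-7 differed most between the 2 particles. It is a lysozyme of the intestine, known as a target of the transcription factor DAF-16 and as a gene that several pathogens induce. Control samples held 712, 717, 422, 574 and 582 CPM, Ag samples 494, 283, 413, 261 and 354 CPM, and SiO2 samples 652, 794, 775, 678 and 1268 CPM. In Ag 4 of the 5 samples were below the lowest Control sample and replicate 6 was inside the Control range, a 1.67-fold fall (log2 fold change −0.74, SE 0.18, adjusted p = 0.0247 in edgeR). Leaving out Control replicate 2 or 4 or Ag replicate 7 or 9 ended that call, with log2 fold changes of −0.67, −0.75, −0.66 and −0.64 and adjusted p-values of 0.0670, 0.0522, 0.0524 and 0.0577. SiO2 samples were all above the Control mean but overlapped with Control (0.46, SE 0.17, adjusted p = 0.202). Between the exposed groups there was no overlap, and lys-7 was 2.31-fold higher in SiO2 than in Ag (1.21, SE 0.20, adjusted p = 0.00152).

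A target of DBL-1 signalling, the TGF-beta pathway of body size and immunity in the worm, lys-8 ranged from 293 to 440 CPM in Control, from 226 to 484 in Ag and from 294 to 449 in SiO2. Its groups overlapped in all 3 comparisons. The log2 differences were −0.25 (SE 0.17, adjusted p = 0.340) for Ag, −0.02 (SE 0.14, adjusted p = 0.982) for SiO2 and 0.23 (SE 0.18, adjusted p = 0.460) for SiO2 against Ag by edgeR. The other gene outside the clusters, lys-10, was at 3.22, 1.12, 0.41, 0.09 and 1.44 CPM in Control, and spread from 0.09 to 3.02 in Ag and from 0.80 to 3.60 in SiO2. At these few reads the log2 differences of −0.38 (SE 0.77) for Ag and 0.69 (SE 0.56) for SiO2 could not be separated from the spread between samples (adjusted p = 0.757 and 0.653 in edgeR).

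Among the invertebrate-type genes ilys-3 gave the largest difference between SiO2 and Ag of the 10. It is made in the pharynx and intestine, where its enzyme is known to help digest the walls of Gram-positive bacteria. Control samples held 9.27, 15.6, 6.59, 6.36 and 6.07 CPM, Ag samples 2.81, 5.31, 9.05, 2.65 and 3.40 CPM, and SiO2 samples 17.3, 30.4, 24.2, 26.3 and 25.1 CPM. All SiO2 samples were above all others, a 2.79-fold rise over Control (log2 fold change 1.48, SE 0.25, adjusted p = 0.00324 in edgeR) and a 5.36-fold difference from Ag (2.42, SE 0.31, adjusted p = 0.000182). In Ag 4 of 5 samples were below the lowest Control sample and replicate 8 was inside the Control range. The Ag difference of −0.93 (SE 0.34) did not pass the test (adjusted p = 0.0920 in edgeR), though it did with DESeq2 (−0.92, adjusted p = 0.0388). The other 7 of 8 alternatives with all samples kept gave no call, among them the Kallisto estimates (−0.76, adjusted p = 0.212 in edgeR).

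Its neighbour ilys-2 was measured from few reads. It was at 0.26 to 1.09 CPM in Control, 0.0466 to 1.54 CPM in Ag and 0.60 to 1.48 CPM in SiO2, and all groups overlapped. The log2 difference of SiO2 from Control was 0.90 (SE 0.39, adjusted p = 0.285 in edgeR), in the direction of ilys-3, and that of Ag was −0.15 (SE 0.63, adjusted p = 0.887).

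A single library bore on most of the Ag values. Ag replicate 8 was the highest of the 5 Ag samples in 9 of the 10 lysozyme genes, the exception being lys-7, while it was the highest in 24.7% of the 14287 genes with a mean of at least 1 CPM. Its lysozyme genes summed to 2616 CPM, against 1357 to 1672 CPM in the other Ag samples and 1687 to 2551 CPM in Control. The summed CPM of 8 intestinal marker genes (act-5, asp-1, elt-2, ges-1, ifb-2, mtl-2, pept-1 and vha-6) was also high in replicate 8, at 15102 against 8275 to 9754 in the other Ag samples. Most of this sum was asp-1, with a mean of 8210 CPM of the mean sum of 10360 CPM in Ag. The part of this difference in the lysozyme values was not tested.

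Replicate 8 was singled out by its high values in these same genes, so leaving it out lowers their Ag means by that choice. The calls below describe the remaining samples and are not a separate test. Without replicate 8 the remaining 4 Ag samples differed from Control in 6 of the 10 genes by edgeR, beside 6.97% of 20573 genes. Besides lys-3 (log2 fold change 1.03, adjusted p = 0.000633) and lys-7 (−0.79, adjusted p = 0.0200), the genes called were lys-2 (−0.55, adjusted p = 0.0254), lys-4 (−0.77, adjusted p = 0.0330), lys-8 (−0.46, adjusted p = 0.0337) and ilys-3 (−1.30, adjusted p = 0.0185). Of these, lys-2, lys-3 and ilys-3 then had no overlap with Control. Both lys-1 (−0.17, adjusted p = 0.273) and lys-5 (−0.13, adjusted p = 0.551) stayed without a call, as did lys-10 (−1.37, adjusted p = 0.236) and ilys-2 (−1.13, adjusted p = 0.193). Against the 4 Ag samples SiO2 differed in 7 genes by edgeR, beside 668 of 21124 genes. The gene added was ilys-2 (2.02, SE 0.49, adjusted p = 0.0272 in edgeR), which had only 1 to 7 reads in each of these 4 Ag samples.

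**Figure D4:**
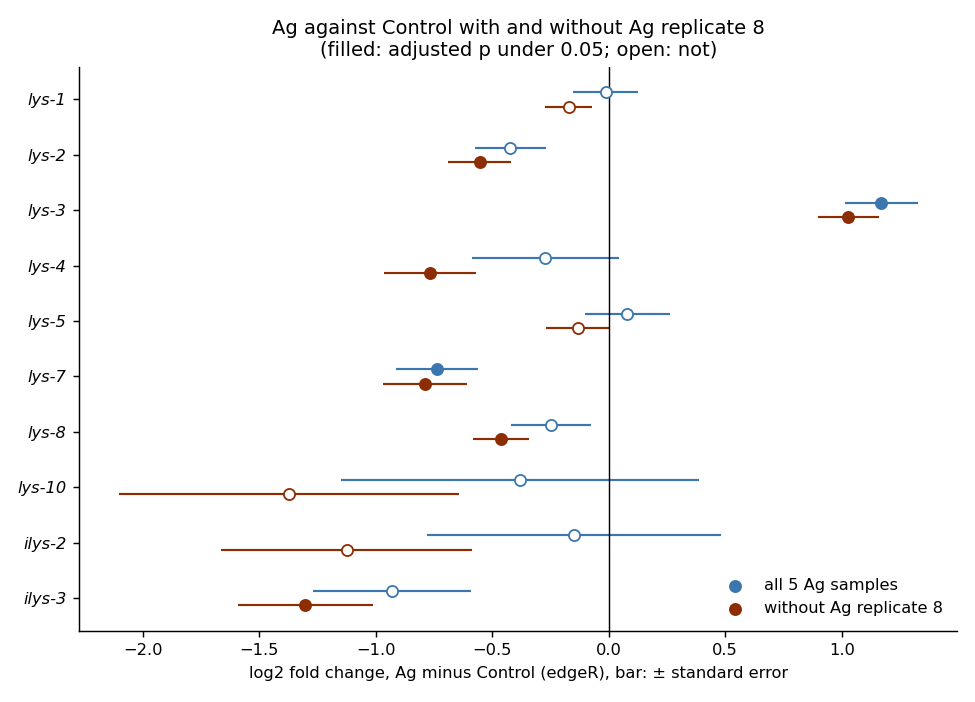
Log2 fold change of Ag minus Control for the 10 lysozyme genes from all 5 Ag samples and from the 4 without replicate 8, with the standard error as a bar. Filled points passed an adjusted p of 0.05 in edgeR, 2 genes with all samples and 6 without replicate 8. That replicate was singled out by its high values in these same genes.

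The make-up of lysozyme expression differed between the groups, whereas its summed level overlapped. Summed over the 10 genes the level was 2386 ± 386 CPM per kilobase in Control, 1933 ± 559 in Ag and 2593 ± 393 in SiO2 (SD, n = 5), with overlapping ranges. In summed CPM the overlap of Ag with Control rested on Ag replicate 8 (2616). The other Ag samples, at 1357 to 1672, were below the Control range of 1687 to 2551. Of the sum in CPM per kilobase lys-1, the larger part of the chromosome V cluster, made up 27.3% ± 2.42 in Control, 33.5% ± 2.28 in Ag and 13.2% ± 1.16 in SiO2. Its range was 24.7% to 30.1% in Control, 30.9% to 35.8% in Ag and 11.4% to 14.2% in SiO2, and no pair of groups overlapped.

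The share of lys-2 was 9.87% ± 1.21 in Control, 9.23% ± 0.848 in Ag and 2.66% ± 0.557 in SiO2. Conversely, lys-4 made up 15.3% ± 3.39 in Control, 15.0% ± 4.57 in Ag and 29.3% ± 5.48 in SiO2. For ilys-3 the shares were 0.748% ± 0.321, 0.475% ± 0.190 and 1.94% ± 0.390 in the same order. For lys-7 the shares were 27.9% ± 3.32, 21.3% ± 5.52 and 35.5% ± 7.07, and for lys-8 they were close, at 16.1% ± 1.13, 16.6% ± 1.38 and 14.5% ± 1.05. As shares within a sample do not depend on library scaling, they show unequal changes among the genes and not the change of any single gene.

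**Figure D5:**
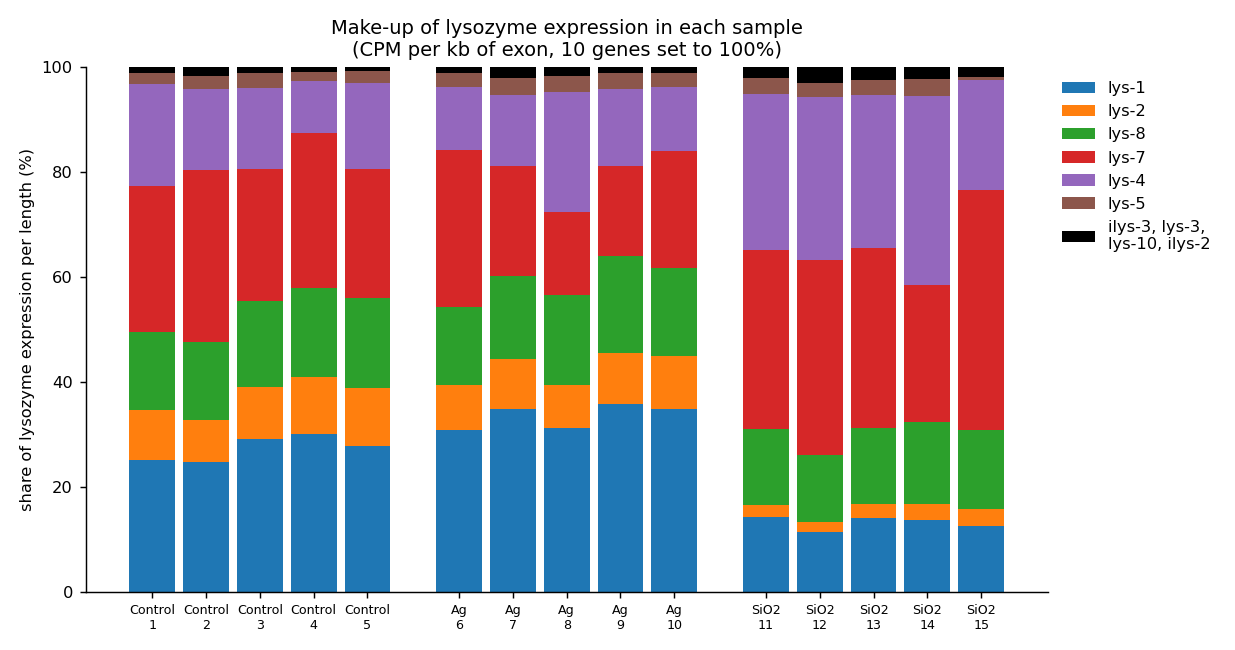
Share of each lysozyme gene in the summed CPM per kilobase of the 10 genes, in percent, for each of the 15 samples. The blue segment of lys-1 is between 11.4% and 14.2% in the SiO2 samples and at least 24.7% in all Control and Ag samples.

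Of the 6 other lysozyme genes, ilys-5 rose with SiO2. It was at 415 ± 54.1 CPM in Control, 437 ± 105 in Ag and 666 ± 120 in SiO2 (SD, n = 5), a 1.61-fold rise with no overlap (log2 fold change 0.68, SE 0.13, adjusted p = 0.00837 in edgeR), and it also exceeded Ag (0.61, SE 0.15, adjusted p = 0.0247). The third gene of the lys-4 cluster, lys-6, was at 7.51 ± 2.19, 8.50 ± 3.86 and 10.8 ± 2.79 CPM (SiO2 against Control 0.53, SE 0.21, adjusted p = 0.232). For ilys-4 the levels were 20.3 ± 2.26, 15.9 ± 3.13 and 19.1 ± 2.03 CPM, and the Ag difference was −0.35 (SE 0.14, adjusted p = 0.122). At most 6 reads per sample fell on lys-9, ilys-1 or ilys-6, which were not informative at this depth.

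Caenopores, small pore-forming peptides that act on bacteria in the intestine beside lysozymes, were followed as a list of 30 spp genes, of which 29 were tested. With SiO2 2 of them rose, spp-17 (log2 fold change 1.99, SE 0.25, adjusted p = 0.000328 in edgeR) and spp-23 (1.66, SE 0.20, adjusted p = 0.000219), none fell by edgeR or DESeq2, beside 2.66% of all genes called in either direction, 0 being lower at an unadjusted p under 0.05, and the median was 0.11. With Ag 1 rose, spp-20 (1.09, SE 0.24, adjusted p = 0.0193), and 2 fell, spp-1 (−0.65, SE 0.16, adjusted p = 0.0264) and spp-2 (−0.57, SE 0.13, adjusted p = 0.0216), with a median of −0.24. These 3 of 29 stand beside 7.76% of all genes called with Ag and 10.5% of those with a mean of at least 1 CPM, a share near that background. DESeq2 called 6 of the 29, beside 3167 of 20669 genes. SiO2 against Ag gave 6 higher genes, beside 2.04% of all genes called higher, spp-1 (0.83), spp-2 (0.67), spp-8 (0.68), spp-17 (2.86), spp-18 (0.70) and spp-25 (0.73), with 0 lower also at an unadjusted p under 0.05 and a median of 0.37. Ag replicate 8 again had the highest sum of the list among Ag samples, 5549 CPM against 3219 to 4060 CPM.

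Regulators known to act on lysozyme genes of the worm, 17 genes of the p38 MAP kinase, DBL-1, DAF-16, HLH-30, intestinal GATA factor and beta-catenin pathways, were lower with Ag where they were called. By edgeR 3 of the 17 fell with Ag, beside 7.76% of all genes called and 3.41% called lower: nsy-1, a kinase of the p38 cascade (log2 fold change −0.39, SE 0.10, adjusted p = 0.0295), sma-6, a DBL-1 receptor (−0.48, SE 0.12, adjusted p = 0.0274), and hlh-30, the worm TFEB (−0.35, SE 0.10, adjusted p = 0.0407). DESeq2 called 5 of the 17 with Ag, beside 3167 of 20669 genes. At an unadjusted p under 0.05 in edgeR 6 were lower and 0 higher, beside 6183 of 20669 genes in either direction. The median was −0.13. With SiO2 none of the 17 was called by edgeR or DESeq2. At an unadjusted p under 0.05 in edgeR 4 were lower and 0 higher, beside 3096 of 20739 genes in either direction. All 17 fold changes were negative, with a median of −0.12. SiO2 against Ag gave no call by either tool and 2 genes at an unadjusted p under 0.05, beside 4437 of 21180 genes.

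The tissue labelled was the whole worm, and markers of intestine, pharynx, epidermis, muscle, neurons and germline were each detected in at least 1 sample. With SiO2 none of the 8 intestinal markers was called by edgeR or DESeq2. Of the 8, 2 had an unadjusted p under 0.05 in edgeR, beside 3096 of 20739 genes. The summed CPM of the 8, 11553 to 14342, overlapped with that of Control, 10986 to 14765. With Ag 1 of the 8 rose, mtl-2 (log2 fold change 0.68, adjusted p = 0.0242 in edgeR), a metallothionein, beside 4.35% of all genes called higher. The summed CPM of the 8 was below every Control sample in 4 of the 5 Ag samples (8275 to 9754), the exception being replicate 8. Most of that sum was asp-1, at 8210 ± 2256 CPM in Ag and 10749 ± 1451 in Control (SD, n = 5). The asp-1 difference was not called (log2 fold change −0.39, adjusted p = 0.107 in edgeR). Of the 8 fold changes 5 were positive and 3 negative, with a median of 0.03. Without replicate 8, lys-2, lys-4, lys-7, lys-8 and ilys-3 were called lower in Ag than in Control. Replicate 8 was singled out by its high lysozyme values, so these calls depend on that choice. The part of the intestinal markers in these lysozyme values was not tested. All 4 germline markers (gld-1, glh-1, pgl-1 and pgl-3) rose with Ag by edgeR, beside 4.35% of all genes called higher. Their median was 0.71, and their summed CPM was 752 to 1243 against 408 to 798 in Control. None of the germline markers was called with SiO2 by edgeR or DESeq2, where 1 had an unadjusted p under 0.05, beside 3096 of 20739 genes. The part of the germline share in the Ag values of the lysozyme genes was not tested.

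For 9 of the 10 genes the mean was at least 1 CPM, and the 2 genes outside the family most like each were sought by Pearson's r of log2 CPM over the 15 samples among 14275 genes. Each r describes samples that share libraries and group differences. For lys-1 they were oac-20 (r = 0.967) and clec-83 (0.944), for lys-2 clec-265 (0.969) and math-37 (0.952), and for lys-3 Y37H2A.14 (0.913) and kreg-1 (0.907). For lys-4 they were gba-4 (0.974) and clec-51 (0.965), and for lys-10 ZK550.2 (0.936) and clec-52 (0.916). The clec genes encode proteins named for a sugar-binding domain, the C-type lectin domain. For ilys-3 the nearest genes were ugt-18 (0.955), of a family of UDP-glycosyltransferases, and lact-3 (0.943), for lys-5 W02B12.1 (0.963) and C24B9.3 (0.909), for lys-8 scav-1 (0.910) and Y32F6A.5 (0.896), and for lys-7 the caenopore gene spp-8 (0.894) and C06A12.3 (0.893).

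The levels of some of these genes are given as a description without a test, since genes chosen for their likeness to a lysozyme gene over these 15 samples share its group differences by that choice. Near the genes that fell with SiO2, clec-265 was at 36.6 ± 6.20 CPM in Control and 12.4 ± 2.93 in SiO2 (SD, n = 5), and oac-20 at 11.0 ± 2.33 and 4.90 ± 1.44 CPM. Near those that rose, gba-4 was at 49.4 ± 12.9 and 98.7 ± 16.3 CPM and ugt-18 at 62.0 ± 8.58 and 124 ± 10.4 CPM. In Ag kreg-1, the second gene for lys-3, was at 7.54 ± 1.74 CPM against 2.41 ± 0.650 in Control.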

How the data were processed

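Whole-worm RNA of 15 samples was sequenced by the authors. Per the labels and the study's methods, reads were trimmed with Trim Galore 0.4.5, aligned to WBcel235 with HISAT2 2.1.0 and counted per gene with HTSeq 0.9.1 in intersection-strict mode; the strand setting is not given in the sources used here. The main table holds the deposited counts, whole numbers of reads without normalization. The second table holds the deposited estimated counts of Kallisto after tximport, which were rounded to whole numbers and used as an alternative. Columns were joined by sample number, and groups came from the labels.

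Genes whose counts summed to at least 3 were tested with edgeR 4.0.16 (R 4.3.3): TMM, quasi-likelihood F test, Benjamini-Hochberg adjustment over all tested genes. Each exposure was compared with Control in a fit of its 10 samples, and SiO2 with Ag in a fit of all 15. SE is the log2 fold change over the square root of F. The procedure was tested on simulated data. Correlations used log2 CPM with a prior count of 2. Positions and exon lengths are from Ensembl release 115, which holds 46603 of the 46778 genes. Alternatives were RLE or library size scaling, other filters, DESeq2 1.42.0, a likelihood ratio test, the estimated counts, other sample sets and leaving out each sample.

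The 10 members and the gene lists were chosen with earlier results of these data known. Named are the members, other lysozyme genes with at least 3 counts, genes called among caenopores and regulators (up to 6 per list and comparison), the 2 nearest genes of each member with a mean of at least 1 CPM, and genes overlapping a member. The genes nearest in pattern whose levels are given, and the marker genes named as called, were chosen after their values were seen. Promoter sequences were not analysed here. A gene's reads were not corrected for near-identical copies: HTSeq counts over Kallisto estimates had a median of 0.758 for lys-5 and 1.55 for ilys-3, the extremes among the 10.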

Additional observations from a re-analysis of the deposited data

Results flagged for a closer look

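Among the 30 sets of 5 samples (10 lysozyme genes in 3 groups) 7 had a sample far from the other 4, where its gap to the nearest sample exceeded 0.71 of the range. Chance flags about 1 in 20 independent sets. These sets share the same libraries and are not independent, so their count cannot be judged against that rate. Ag replicate 8 accounted for 5 of them: lys-1 at 870.3 CPM against 496.7 to 587.6, lys-4 at 525.3 against 157.0 to 192.4, lys-5 at 62.21 against 32.73 to 35.48, lys-8 at 483.8 against 226.5 to 298.8, and ilys-2 at 1.541 against 0.04657 to 0.3398. The other 2 were in SiO2, lys-4 in replicate 14 at 825.0 CPM against 491.9 to 578.4, and lys-7 in replicate 15 at 1268.3 CPM against 652.2 to 793.6.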

How the results depend on the processing

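No paired analysis was possible because the replicate numbers run from 1 to 15 and the groups share none. Of 246 combinations of a called lysozyme difference and an alternative, 240 kept their direction and their call, 6 lost the call (5 of them by leaving out a sample) and none reversed. With all samples kept, lysozyme calls numbered 2 to 3 for Ag against Control, 3 to 4 for SiO2 against Control and 6 for SiO2 against Ag. Leaving out each sample gave 1 to 6, 4 to 4 and 5 to 7 in the same order, the 1 arising without Control replicate 2 or 4 or Ag replicate 7 or 9, the 6 without Ag replicate 8, the 5 without Ag replicate 9 and the 7 without Ag replicate 8.

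Over all genes the calls were 1604 for Ag against Control, 551 for SiO2 against Control and 720 for SiO2 against Ag. With DESeq2 they were 3167, 995 and 1647, and with the likelihood ratio test 2763, 1095 and 1474. The fit of all 15 samples gave 222 for SiO2 against Control, and the 2 groups alone gave 409 for SiO2 against Ag. Leaving out samples moved them from 353 (without Control replicate 3) to 1833 (without Control replicate 5), from 251 (without Control replicate 1) to 853 (without SiO2 replicate 15) and from 392 (without SiO2 replicate 13) to 2052 (without SiO2 replicate 14); the cause was not tested.

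Directions that reversed on leaving out a sample all belonged to differences without a call. Against Control, the Ag log2 fold changes then spread from −0.17 to 0.054 for lys-1, from −0.13 to 0.14 for lys-5, from −1.37 to 0.32 for lys-10 and from −1.13 to 0.26 for ilys-2, and those of SiO2 from −0.14 to 0.22 for lys-3 and from −0.10 to 0.051 for lys-8. SiO2 against Ag spread from −0.054 to 0.37 for lys-5. The filter of edgeR for low counts gave no value for ilys-2 in Ag against Control. With 1 to 26 reads per sample for ilys-2 and 2 to 65 for lys-10, counting limits both genes.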

Other observations

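Other tissue markers were read as values only. With SiO2, 2 of 5 epidermal genes rose, beside 1.91% of all genes called higher. They were the cuticle collagens bli-1 (log2 fold change 2.97, SE 0.62, adjusted p = 0.0169 in edgeR) and rol-6 (2.23, SE 0.41, adjusted p = 0.00695 in edgeR). Both were low: bli-1 was at 0.44 ± 0.41 CPM in Control and 3.55 ± 2.34 in SiO2 (SD, n = 5). For rol-6 the levels were 1.51 ± 0.82 and 7.23 ± 4.28 CPM, and for both genes the groups overlapped. The other 3 genes of the list had negative fold changes and were not called. They were the adult cuticle collagen col-19 (−0.06, SE 0.15, adjusted p = 0.898 in edgeR), dpy-7 (−0.05, SE 0.11) and wrt-10 (−0.17, SE 0.11). The median of the list was −0.05. With Ag, 4 of 6 vitellogenin genes, which encode yolk proteins made in the intestine, rose, beside 4.35% of all genes called higher. They were vit-1 (0.81), vit-3 (0.94), vit-4 (1.17) and vit-6 (0.34), at 156, 62.3, 24.6 and 16217 CPM in Control. The other genes of the list, vit-2 (0.07) and vit-5 (−0.05), were not called and held 33073 and 7511 CPM in Control. In the same comparison pha-4, a pharyngeal transcription factor (−0.43, SE 0.12, adjusted p = 0.0416), and unc-119, a neuronal gene (−0.50, SE 0.11, adjusted p = 0.0200), fell. Each was the only gene of the 4 in its list that edgeR called, beside 3.41% of all genes called lower. All 4 pharyngeal and all 4 neuronal genes had negative fold changes with an unadjusted p under 0.05 in edgeR. That threshold was met by 6183 of 20669 genes in either direction. The medians of the 2 lists were −0.46 and −0.38. DESeq2 called 1 pharyngeal and 2 neuronal genes, beside 3167 of 20669 genes. The summed CPM was 340 to 484 in Ag and 436 to 974 in Control for the pharyngeal genes, and 148 to 195 against 176 to 242 for the neuronal genes. None of the 4 body wall muscle genes was called by edgeR or DESeq2 in any comparison. At an unadjusted p under 0.05 there were 0 genes against Control for either particle. For SiO2 against Ag there were 2, beside 4437 of 21180 genes. These genes were chosen as markers, and their part in the lysozyme values was not tested.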
